A study of Mus musculus with 16 samples.

Results

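The enzymes and the transporter described here make or spend arginine, nitric oxide, itaconate and kynurenine, and were chosen by symbol: Nos2, Arg1, Arg2, Ass1, Asl, Slc7a2, Gch1, Acod1 and Ido1. Of these 9 genes, 6 had a row among the 16707 genes of the deposited log2 CPM table, namely Nos2, Gch1, Slc7a2, Ass1, Asl and Acod1. Arg1, Arg2 and Ido1 had no row there, and only their read counts and TPM are given. The genes were followed in primary astrocytes from the brains of P6 pups, WT (C57BL6J) or Nlrx1-/-, which lack a mitochondrial member of the NOD-like receptor family. The pups' cells were bound to ACSA-2 beads, which select astrocytes, and grown for about 10 days in serum-free medium with heparin-binding EGF. Every culture was then given vehicle (H2O) or LPS at 500 ng/mL, a bacterial ligand of TLR4, together with IFNγ at 10 ng/mL, for 24 h. There were 4 litters of each genotype, each litter gave a vehicle well and a stimulated well, and the 4 groups of 4 libraries made 16 poly-A RNA-seq libraries. Both wells of a replicate came from a shared set of mice, which the study's methods call a litter. Nlrx1-/- cultures came from Nlrx1-/- pups, and the study's model nested litters within genotype.

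Nitric oxide synthases turn arginine and oxygen into citrulline and nitric oxide, with tetrahydrobiopterin as a cofactor. Ass1 and Asl, argininosuccinate synthase and lyase, rebuild arginine from that citrulline, while the arginases Arg1 and Arg2 split arginine into ornithine and urea. Acod1 makes itaconate from the citric acid cycle intermediate cis-aconitate, and Ido1 opens the kynurenine route of tryptophan breakdown. In rodent macrophages and glia, bacterial products and IFNγ are classical inducers of Nos2, Gch1, Acod1 and Ido1.

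Between 27259420 and 43752903 reads were assigned per library. Nlrx1 was at 16.8 to 21.7 CPM (reads scaled to a common library size, TMM-adjusted) in the 8 WT libraries and at 2.07 to 7.75 CPM in the 8 Nlrx1-/- libraries, so the labels and the targeted gene went together, although reads remained. All 9 astrocyte markers had a row in the table, and their CPM summed to 5831 to 9845 in WT and 4860 to 7605 in Nlrx1-/- libraries. Of 14 markers of microglia and macrophages, 12 had no row, among them Aif1, Cx3cr1, Csf1r, Itgam and Ptprc, and none of the 3 T cell markers had one. The other 2 microglial genes, P2ry12 and Cd68, summed to 0.651 to 2.22 CPM in vehicle and to 1.30 to 3.62 CPM in stimulated libraries. Litter 3 of Nlrx1-/- stood apart from the other Nlrx1-/- litters for several genes below, and its 5 fibroblast markers summed to 69.6 CPM in vehicle and 50.5 CPM after stimulation, the highest of their groups. Among the Nlrx1-/- litters, litter 3 also had the least Nlrx1, at 3.52 CPM in vehicle and 2.07 CPM after stimulation. The other Nlrx1-/- litters had 4.66 to 7.75 CPM in vehicle and 4.19 to 4.62 CPM after stimulation. The part of litter 3 in the results was not tested, and values without it are given beside the single-gene calls named here that changed. In bulk RNA, fewer cells of a type and less RNA per cell cannot be told apart.

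For 3 of the 9 genes, Gch1, Ass1 and Acod1, the reference held a promoter. The 250 bases before the RefSeq start (GRCm38.p6) are shown for these genes only. Capitals mark matches, on either strand, to the loose kappaB letters GGGNNNNNCC, the stricter NF-kB consensus and TATAAA. The ISRE letters GAAANNGAAA and the gamma-activated site (GAS) letters TTCNNNGAA were searched as well. Every match to the strict consensus is also a loose kappaB match.
Gch1, chr14:47189414-47189663, minus strand: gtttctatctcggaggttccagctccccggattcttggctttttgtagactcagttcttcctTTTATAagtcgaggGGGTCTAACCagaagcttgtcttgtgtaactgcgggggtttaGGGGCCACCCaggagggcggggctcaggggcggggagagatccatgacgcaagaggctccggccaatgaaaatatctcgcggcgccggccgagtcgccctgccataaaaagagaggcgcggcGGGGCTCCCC
Ass1, chr2:31470020-31470269, plus strand: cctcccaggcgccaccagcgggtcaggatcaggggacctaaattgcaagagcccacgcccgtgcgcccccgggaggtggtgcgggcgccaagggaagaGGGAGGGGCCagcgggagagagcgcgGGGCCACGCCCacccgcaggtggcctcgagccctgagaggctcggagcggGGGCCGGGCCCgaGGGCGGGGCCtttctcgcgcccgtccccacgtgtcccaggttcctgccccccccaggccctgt
Acod1, chr14:103046762-103047011, plus strand: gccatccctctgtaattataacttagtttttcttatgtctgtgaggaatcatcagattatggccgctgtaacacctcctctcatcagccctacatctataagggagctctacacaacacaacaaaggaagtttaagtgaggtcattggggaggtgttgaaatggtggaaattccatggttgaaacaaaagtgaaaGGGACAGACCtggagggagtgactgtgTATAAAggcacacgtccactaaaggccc
The Gch1 sequence held a match to the strict NF-kB consensus, GGGGCTCCCC, over the 10 bases just before the start, and 3.90% of all 32851 promoters in the reference held such a match. The Acod1 sequence held TATAAA from 28 to 23 bases before the start, which 12.4% of promoters had somewhere in the window, and a single loose kappaB match from 55 to 46 bases before it. The Ass1 sequence held loose kappaB matches alone, and 45.8% of promoters held at least 1. None of these 3 windows held the ISRE letters, which were present in 2.98% of promoters, or the GAS letters, present in 7.02%. These matches describe letters and not bound sites.

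Per transcript length, the arginine machinery was led by the transporter and the nitric oxide synthase was near the bottom. In WT vehicle libraries the order by mean TPM, a level scaled by transcript length and depth, was Slc7a2 (61.3 ± 11.6, SD, n = 4), Asl (19.1 ± 2.32), Ass1 (6.52 ± 0.729), Gch1 (0.917 ± 0.117), Arg2 (0.435 ± 0.179) and Nos2 (0.080 ± 0.092). The ranges of neighbours in that order did not overlap down to Nos2, below which Ido1, Arg1 and Acod1 were at or near 0 and overlapped. In WT stimulated libraries Slc7a2 (28.1 ± 4.16 TPM), Asl (18.2 ± 1.88 TPM) and Ass1 (7.31 ± 1.04 TPM) kept their places, and Gch1 (3.44 ± 0.467 TPM) and Acod1 (3.14 ± 1.50 TPM) followed with overlapping ranges. Nos2 came next at 0.563 ± 0.217 TPM and overlapped Ido1 at 0.355 ± 0.119 TPM. In stimulated Nlrx1-/- libraries the first 3 places drew together, with Slc7a2 at 15.5 ± 8.66, Asl at 15.0 ± 1.11 and Ass1 at 13.6 ± 3.67 TPM and overlapping ranges.

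**Figure D1:**
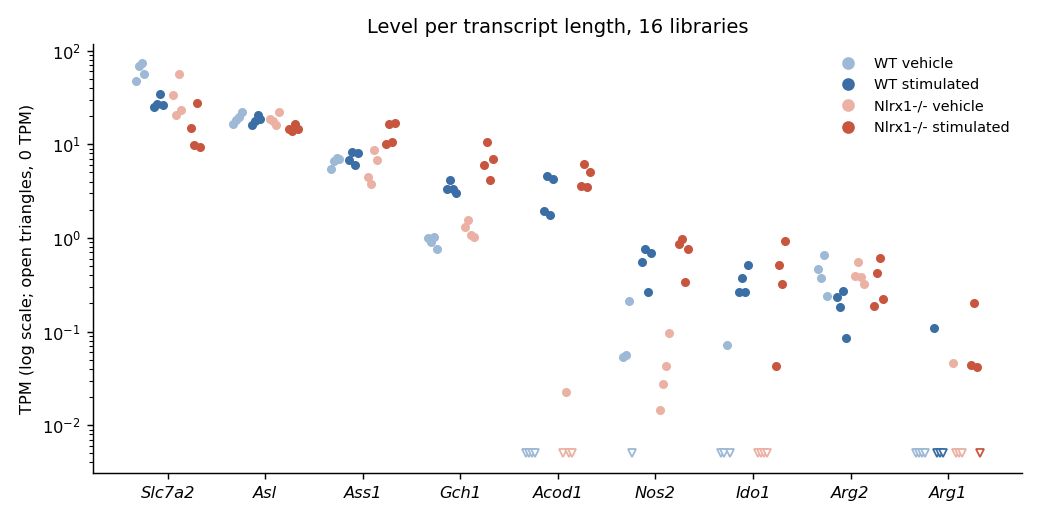
TPM of the 9 genes (log axis) in each of the 16 libraries, a point per library coloured by group, with open triangles at the bottom for libraries at 0 TPM. Acod1 went from 0 TPM in 7 of the 8 vehicle libraries to 1.74 to 6.12 TPM after stimulation, while Arg1 never passed 0.200 TPM.

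Responses to LPS + IFNγ were measured between the wells of a litter. A gene was called where the edgeR quasi-likelihood test gave an adjusted p (Benjamini-Hochberg over all 16066 genes tested) below 0.05. In the WT response 3 of the 6 genes rose and 1 fell, where 44% of all genes were called, 24.3% higher and 19.8% lower. In the Nlrx1-/- response 4 rose and 1 fell, where 49.5% of all genes were called, 25.6% higher and 23.9% lower. The median log2 change was 1.25 over the 6 genes in WT and 1.99 in Nlrx1-/-, against -0.01 and -0.03 over all genes.

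Acod1 (chr14:103284413-103294009, GRCm39), the itaconate-producing enzyme, was not detected in WT vehicle cells and rose in every litter. In the 4 WT vehicle libraries it had 0 reads, and in stimulated libraries 2.45, 6.19, 2.30 and 5.51 CPM for litters 1 to 4. In Nlrx1-/- vehicle libraries a single read was found, in litter 2, and stimulated libraries reached 4.60, 8.41, 4.48 and 6.85 CPM. Every stimulated library stood far above every vehicle library in both genotypes. Set against a floor of 3 reads over the 4 WT vehicle libraries, the 545 stimulated reads were at least 185-fold higher per assigned read, and the exact 95% lower limit of the ratio was 149.8. In Nlrx1-/- the 791 stimulated reads against 1 vehicle read gave a ratio of 816, with a 95% exact interval of 146 to 32287 that covers counting error only. Both responses were called by edgeR (adjusted p = 8.72e-06 in WT and 4.92e-06 in Nlrx1-/-). In stimulated cells the genotypes overlapped, with a fitted Nlrx1-/- minus WT difference of 0.54 log2 (SE 0.38, adjusted p = 0.375 by edgeR, 95% interval -0.28 to 1.37). Within each genotype, litter 2 was highest, then litters 4, 1 and 3. Acod1 is a gene of activated macrophages, and the sum of P2ry12 and Cd68 moved in the same direction after stimulation. Its medians were 1.12 and 1.67 CPM in WT vehicle and stimulated libraries and 1.22 and 2.43 CPM in those of Nlrx1-/-. P2ry12 rose without overlap, from 0.0647 to 0.357 CPM in vehicle to 0.461 to 0.798 CPM after stimulation in WT. In Nlrx1-/- it went from 0.0481 to 0.444 CPM to 0.616 to 1.78 CPM. Cd68 overlapped, at 0.587 to 1.09 and 0.744 to 1.81 CPM in WT and 0.674 to 1.77 and 0.682 to 1.92 CPM in Nlrx1-/-. Across all 14 microglial markers the reads per library were 45 to 115 in vehicle and 48 to 176 in stimulated libraries. The 12 without a row together had 11 to 68 reads in WT vehicle and 4 to 85 in WT stimulated libraries. In Nlrx1-/- they had 6 to 42 reads in vehicle and 5 to 25 in stimulated libraries. Their part in the Acod1 and Nos2 results was not tested.

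Nos2 (chr11:78811613-78851080), the inducible nitric oxide synthase, rose in both genotypes from a level near the detection limit and stayed low. WT vehicle libraries had 0.099, 0.108, 0.399 and 0 CPM in litters 1 to 4, from 3, 3, 18 and 0 reads. WT stimulated libraries had 1.17, 1.71, 0.588 and 1.50 CPM. Nlrx1-/- vehicle libraries had 0.0281, 0.0556, 0.0839 and 0.191 CPM. Nlrx1-/- stimulated libraries had 1.90, 2.26, 0.743 and 1.72 CPM. Vehicle and stimulated libraries did not overlap in either genotype, and litter 3 was the lowest stimulated library in both. The fitted rise was 3.23 log2 in WT (SE 0.88, adjusted p = 0.0125 by edgeR) and 4.14 log2 in Nlrx1-/- (SE 0.87, adjusted p = 0.00264). Per litter, WT litter 3 gave the smallest response, 0.50 log2 CPM, and the other WT litters gave 2.98, 3.42 and 4.76. Leaving out WT litter 2 ended the WT call (2.97 log2, adjusted p = 0.0588 by edgeR), and the fitted rise was 4.47 log2 without WT litter 3 and 2.50 log2 without WT litter 4. Stimulated Nlrx1-/- and WT libraries overlapped and differed by 0.39 log2 (SE 0.63, adjusted p = 0.726 by edgeR, 95% interval -0.94 to 1.72), an interval that does not show that the genotypes were alike.

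Salmon divided the Nos2 reads between 2 RefSeq transcripts. Over all libraries NM_010927.4 held 73.0% of the reads and NM_001313922.1 held 27.0%. In each of the 7 vehicle libraries with Nos2 reads, all of them, 1 to 18 reads per library, went to NM_001313922.1. In stimulated libraries NM_010927.4 held all reads in 5 of 8, 31.1% and 32.6% in Nlrx1-/- litters 1 and 3, and none in WT litter 3. The share of NM_010927.4 was higher by 66.2 percentage points on average (SD 43.4, n = 7 litters, higher in 6 of 7), with p = 0.0312 in an exact two-sided sign-flip permutation test and 0.0625 after adjustment over the 2 genes tested. Since the vehicle shares rest on so few reads, a change of transcript and Salmon's division of few reads cannot be told apart. For Asl, NM_133768.5 held 73.5% of reads and its share differed by -3.05 percentage points (SD 10.8, n = 8, exact permutation p = 0.383).

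Gch1 (chr14:47391346-47426915), GTP cyclohydrolase 1, makes the first committed step to tetrahydrobiopterin, the cofactor of nitric oxide synthases. WT vehicle libraries had 1.20, 1.11, 1.24 and 0.936 CPM in litters 1 to 4 and WT stimulated libraries 4.59, 6.04, 4.79 and 4.26 CPM. Nlrx1-/- vehicle libraries had 1.63, 2.01, 1.38 and 1.32 CPM and Nlrx1-/- stimulated libraries 8.50, 15.8, 5.89 and 10.3 CPM. Stimulated libraries lay above vehicle libraries without overlap in both genotypes, and Nlrx1-/- vehicle libraries lay just above WT vehicle libraries. The rise was 4.34-fold in WT (2.12 log2, SE 0.20, adjusted p = 1.17e-05 by edgeR) and 6.07-fold in Nlrx1-/- (2.60 log2, SE 0.19, adjusted p = 1.92e-06).

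Slc7a2 (chr8:41315431-41375345), the cationic amino acid transporter CAT-2 that brings arginine into cells, fell in every litter. WT libraries had 162, 240, 251 and 197 CPM in vehicle and 97.0, 112, 140 and 106 CPM after stimulation for litters 1 to 4. Nlrx1-/- libraries had 119, 75.5, 200 and 83.9 CPM in vehicle and 59.5, 41.8, 111 and 38.9 CPM after stimulation. WT groups did not overlap, whereas in Nlrx1-/- stimulated litter 3 lay above 2 vehicle libraries of other litters. The fall was 1.86-fold in WT (-0.90 log2, SE 0.07, adjusted p = 2.55e-06 by edgeR) and 1.95-fold in Nlrx1-/- (-0.96 log2, SE 0.07, adjusted p = 1.52e-06). The 8 litter responses lay between -1.11 and -0.74 log2 CPM, the narrowest spread of the called genes here. The median marker sums of other cell types moved in both directions. Those of the oligodendrocyte lineage, ependymal cells and fibroblasts also fell in both genotypes, and those of neurons and microglia rose. The endothelial and mural sum fell in WT and rose in Nlrx1-/-. For 7 oligodendrocyte-lineage markers the median sums in vehicle and stimulated libraries were 1164 and 846 CPM in WT and 953 and 693 CPM in Nlrx1-/-, with a range of 621 to 1248 CPM over all libraries. For the 2 of 3 ependymal markers with a row they were 197 and 135 CPM in WT and 144 and 95.03 CPM in Nlrx1-/-, with a range of 70.5 to 227 CPM. Within the oligodendrocyte-lineage list, Olig2 overlapped between vehicle and stimulated libraries, at 404 to 748 and 338 to 800 CPM in WT. In Nlrx1-/- it was at 378 to 744 and 380 to 688 CPM. The part of these cell types in the Slc7a2 fall was not tested.

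Ass1 (chr2:31352181-31410862), which joins citrulline and aspartate, rose in Nlrx1-/- cultures. WT vehicle libraries had 3.73, 4.68, 4.87 and 4.81 CPM in litters 1 to 4 and WT stimulated libraries 5.37, 6.89, 4.95 and 6.44 CPM. Nlrx1-/- libraries went from 3.21, 2.80, 6.29 and 4.99 CPM to 8.08, 14.1, 8.48 and 14.1 CPM. The groups did not overlap in either genotype, although in WT the gap between the highest vehicle and the lowest stimulated library was small. The Nlrx1-/- rise was 2.60-fold (1.38 log2, SE 0.24, adjusted p = 0.000878 by edgeR), and the WT change of 0.38 log2 (SE 0.24, adjusted p = 0.231) was not called. Litter responses were 1.32, 2.31, 0.43 and 1.49 log2 CPM in Nlrx1-/- and 0.52, 0.55, 0.02 and 0.42 in WT. Asl (chr5:130040099-130058088), the next enzyme, stayed between 12.8 and 18.6 CPM in all 16 libraries and was called in neither response (0.15 log2, SE 0.11, adjusted p = 0.293 in WT, and -0.13 log2, SE 0.11, adjusted p = 0.335 in Nlrx1-/-, by edgeR).

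**Figure D2:**
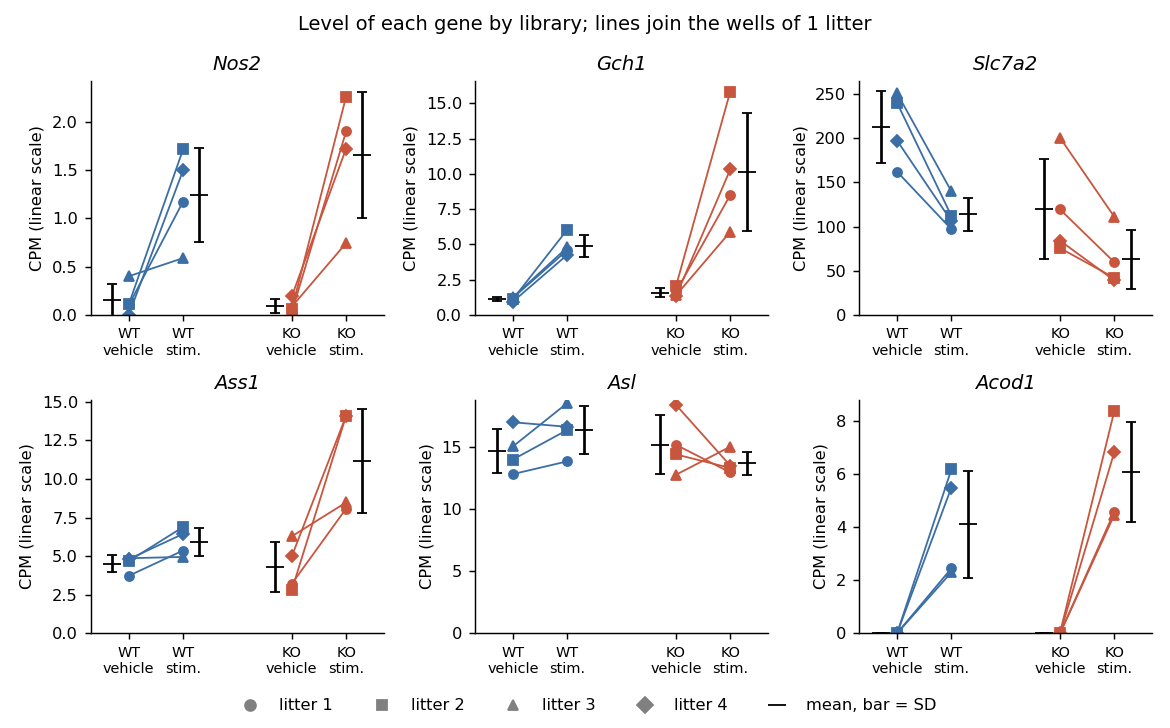
CPM (linear axes) of the 6 genes with a row in the table, a panel per gene, with a line joining the vehicle and stimulated wells of a litter and black bars for the mean and SD of 4 libraries. Acod1, Nos2 and Gch1 climbed and Slc7a2 dropped in every litter, and Nlrx1-/- litters 2 and 4 reached the highest stimulated Ass1 and Gch1 levels.

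**Figure D3:**
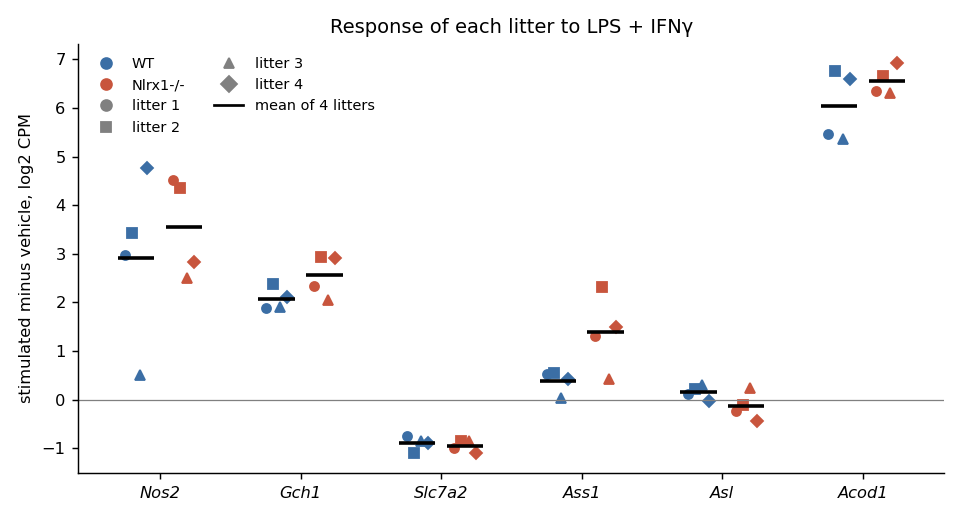
Stimulated minus vehicle log2 CPM of each litter, a point per litter coloured by genotype with the litter numbers as symbols, and a bar for the mean of 4. Slc7a2 responses lay between -1.11 and -0.74 in all 8 litters, while Nos2 responses ran from 0.50 to 4.76. Acod1 values depend on the prior count at 0 reads.

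Among the genes without a row, Ido1 (chr8:25074150-25087025) went from 0, 0, 2 and 0 reads in WT vehicle libraries to 5, 9, 6 and 15 reads in WT stimulated libraries of litters 1 to 4. In Nlrx1-/- libraries it went from 0 reads in every vehicle library to 1, 12, 8 and 23 reads. The WT ratio was 17.8 (95% exact interval 4.57 to 153, counting error only). Against a floor of 3 reads over the group, the Nlrx1-/- stimulated libraries were at least 15.1-fold higher, and the exact 95% lower limit of the ratio was 11.8. With no filter on low counts, edgeR called both (adjusted p = 0.0485 in WT and 0.0123 in Nlrx1-/-). Arg1 (chr10:24791118-24803817) had 0 to 4 reads in any library, 2 reads over all WT stimulated and 6 over all Nlrx1-/- stimulated libraries, so that a response was not detectable at this depth. Arg2 (chr12:79177524-79203075), the mitochondrial arginase, had 2 to 17 reads per library and was called in neither response in the unfiltered edgeR fit (adjusted p = 0.500 in WT and 0.984 in Nlrx1-/-). Its WT reads went from 36 in vehicle to 15 after stimulation (ratio 0.424, 95% exact interval 0.216 to 0.794, counting error only). Nlrx1-/- reads of Arg2 went from 36 to 31 (ratio 0.889, 95% exact interval 0.532 to 1.48).

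Whether the responses differed between genotypes was tested by the interaction. None of the 6 genes was called in the edgeR fit, and 0% of all genes were (0 of 16066, with 2484 at an unadjusted p below 0.05 and 310 called by DESeq2). Among the genes described here Ass1 alone passed 0.05 before adjustment, with a response larger by 1.00 log2 in Nlrx1-/- (SE 0.34, adjusted p = 0.231 by edgeR). Without Nlrx1-/- litter 3 this difference was 1.31 log2 (SE 0.27) and was called (adjusted p = 0.0456 by edgeR). In the other 7 fits that left out a litter it was not called. Over all 8 such fits it ran from 0.70 to 1.31 log2, with adjusted p up to 0.480 by edgeR. The Gch1 response was larger by 0.48 log2 in Nlrx1-/- (95% interval -0.11 to 1.08), and the Slc7a2 responses differed by -0.07 log2 (95% interval -0.28 to 0.15), which were not called.

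In vehicle no gene of the 6 was called between genotypes by the edgeR test, and 0% of all genes were called (0 of 16066, with 3136 at an unadjusted p below 0.05 and 781 called by DESeq2). Nlrx1 itself was not called (-1.70 log2, SE 0.24, adjusted p = 0.0510 by edgeR), although all Nlrx1-/- libraries lay below all WT libraries. The absence of calls therefore does not show that the genotypes were alike. Slc7a2 had the only unadjusted p below 0.05 among the 6, at -0.84 log2 in Nlrx1-/- (SE 0.33, adjusted p = 0.187 by edgeR). Its Nlrx1-/- litter 3, at 200 CPM, lay within the WT range of 162 to 251 CPM, and the other Nlrx1-/- litters were at 75.5 to 119 CPM. Without litter 3 the difference was -1.20 log2 (SE 0.20, adjusted p = 0.0100 by edgeR). Leaving out any other litter gave no Slc7a2 call. Over all 8 such fits the difference ran from -1.20 to -0.67 log2, with adjusted p up to 0.498 by edgeR.

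In stimulated cells Gch1 and Ass1 were higher in Nlrx1-/- than in WT, 2 of 6 genes, where 4.72% of all genes were called, 2.46% higher and 2.26% lower. Gch1 was 2.04-fold higher (1.03 log2, SE 0.25, adjusted p = 0.0417 by edgeR), with groups that overlapped only through Nlrx1-/- litter 3, at 5.89 CPM against a WT maximum of 6.04 CPM. Ass1 was 1.87-fold higher (0.90 log2, SE 0.25, adjusted p = 0.0499 by edgeR), and all 4 Nlrx1-/- libraries, from 8.08 CPM, lay above all 4 WT libraries, up to 6.89 CPM. Slc7a2 was lower by a factor of 1.82 without being called (-0.87 log2, SE 0.33, adjusted p = 0.104). Its call changed in a fit with a block on the replicate number, which pairs each WT litter with a Nlrx1-/- litter (-0.98 log2, adjusted p = 0.0223 by edgeR). The labels give only replicate numbers, and the study's model nested litters within genotype, so this pairing is not given by the design. Across genes, deviations from the group mean correlated at a median r of 0.04 for such pairs and -0.04 for pairs with unlike numbers. Slc7a2 was also called without Nlrx1-/- litter 3 (-1.30 log2, adjusted p = 0.00312 by edgeR). Without any other litter it was not called, and over litters left out it ran from -1.30 to -0.69 log2 (adjusted p up to 0.254 by edgeR). Asl was at -0.28 log2 (SE 0.12, adjusted p = 0.157 by edgeR). The Gch1 and Ass1 calls lie close to the threshold. Leaving out a litter ended the Ass1 call for 7 of the 8 litters and the Gch1 call for 6 of 8, with adjusted p up to 0.164 and 0.151, while without Nlrx1-/- litter 3 both were called with changes of 1.01 and 1.21 log2 (adjusted p = 0.00962 and 0.00477 by edgeR). In a fit of only the 8 stimulated libraries neither was called (adjusted p = 0.0759 and 0.0765).

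**Figure D4:**
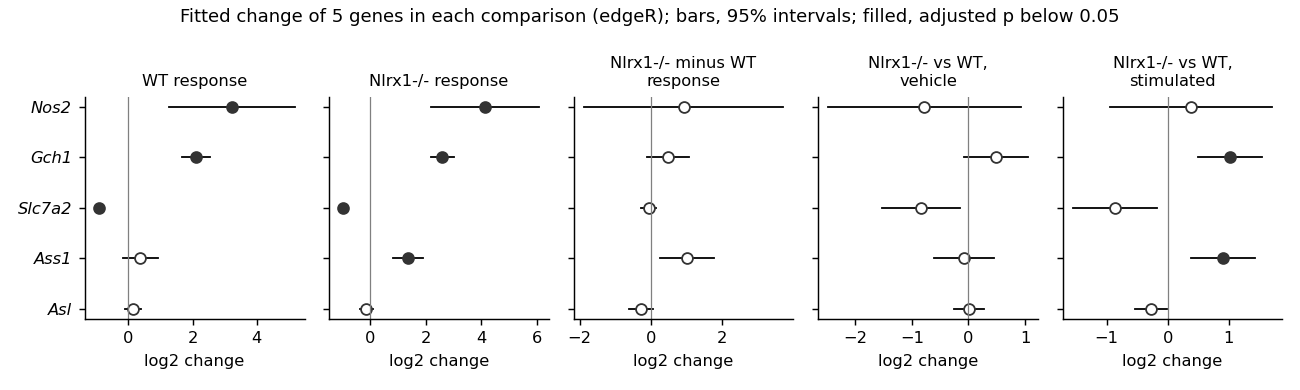
Fitted log2 change (edgeR) of Nos2, Gch1, Slc7a2, Ass1 and Asl in the 5 comparisons, with bars for 95% intervals and filled points where the adjusted p was below 0.05; x axes differ between panels, and Acod1 is left out because its fold rests on vehicle libraries at 0 reads. Filled points in the stimulated genotype comparison are Gch1 at 1.03 and Ass1 at 0.90.

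Genes around the 9 were read from 9 lists of 71 genes, of which 60 were tested. In the WT response 23 rose and 13 fell, and in the Nlrx1-/- response 21 rose and 17 fell, which are shares of the listed genes to be read beside the 44% and 49.5% of all genes called. The list medians over all 60 were 0.15 and 0.04 log2.

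Of the other nitric oxide synthase genes, Nos1, the neuronal enzyme, had the largest rise of any listed gene. WT libraries of litters 1 to 4 went from 0.539, 1.84, 0.768 and 3.91 CPM to 36.1, 33.6, 38.1 and 40.5 CPM. Nlrx1-/- libraries went from 0.785, 0.806, 1.11 and 0.760 CPM to 33.2, 18.0, 40.5 and 14.8 CPM. The groups were far apart in both genotypes, and Nlrx1-/- litters 2 and 4 were the lowest stimulated libraries. The rise was 4.60 log2 in WT (SE 0.37, adjusted p = 4.45e-06 by edgeR) and 4.85 log2 in Nlrx1-/- (SE 0.39, adjusted p = 3.80e-06). Per transcript length, stimulated libraries had 2.54 to 7.32 TPM of Nos1 and 0.263 to 0.973 TPM of Nos2, ranges that did not overlap. The neuronal list moved with it through Tubb3, a tubulin of neurons, at 4.56 to 11.5 CPM in vehicle and 51.2 to 79.4 CPM in stimulated libraries, whereas Rbfox3, a nuclear marker of mature neurons, was at 2.89 to 3.42 CPM in vehicle and 1.22 to 2.54 CPM after stimulation, and Slc17a7 had no row. Over the 5 neuronal markers with a row the sum was 20.2 to 26.8 CPM in vehicle and 57.5 to 89.6 CPM after stimulation. Their part in the Nos1 rise was not tested. Nos1ap, an adaptor of that enzyme, fell in Nlrx1-/- (-0.64 log2, SE 0.17, adjusted p = 0.0112 by edgeR).

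Tetrahydrobiopterin genes other than Gch1 changed little, with 3 of 6 risen in WT and 1 risen and 1 fallen in Nlrx1-/-. Spr, sepiapterin reductase, rose by 0.39 log2 in WT (adjusted p = 0.000711 by edgeR) and 0.18 log2 in Nlrx1-/- (adjusted p = 0.0386), where the call ended without Nlrx1-/- litter 3 (0.14 log2, adjusted p = 0.146). Pcbd1, which recycles the cofactor, fell by 0.56 log2 in Nlrx1-/- (adjusted p = 0.0308). Downstream of nitric oxide, Gucy1a1, a subunit of its receptor guanylate cyclase, fell from 15.0 to 17.9 CPM in WT vehicle libraries to 3.29 to 5.47 CPM (-1.90 log2, SE 0.16, adjusted p = 5.34e-06 by edgeR) and by 2.23 log2 in Nlrx1-/- (SE 0.17, adjusted p = 2.03e-06). In that list 1 of 7 genes rose and 3 fell in WT, and 1 rose and 4 fell in Nlrx1-/-. The gene that rose was Prkg1, the cGMP-dependent kinase (0.36 log2, adjusted p = 0.0287 by edgeR in WT, and 0.65 log2, adjusted p = 0.00106 in Nlrx1-/-).

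Of 6 other arginine and citrulline carriers tested, 3 rose and 1 fell in WT, and 4 rose in Nlrx1-/-. Slc7a3, the carrier CAT-3, rose by 1.40 log2 in WT (SE 0.41, adjusted p = 0.0175 by edgeR) and 2.61 log2 in Nlrx1-/- (SE 0.41, adjusted p = 0.000373), and Slc7a6 fell by 0.26 log2 in WT (adjusted p = 0.0213). In stimulated cells 3 carriers were higher in Nlrx1-/- than in WT by the edgeR test: Slc7a3 by 2.53 log2 (SE 0.60, adjusted p = 0.0408), Slc7a1, the carrier CAT-1, by 1.93 log2 (SE 0.47, adjusted p = 0.0426) and Slc7a5, a carrier of large neutral amino acids, by 1.89 log2 (SE 0.40, adjusted p = 0.0403). For Slc7a1 the stimulated libraries of litters 1 to 4 had 113, 70.3, 67.0 and 39.2 CPM in WT and 185, 441, 96.3 and 392 CPM in Nlrx1-/-. For Slc7a3 they had 10.4, 7.28, 11.0 and 4.09 CPM in WT and 17.4, 78.8, 9.49 and 86.3 CPM in Nlrx1-/-. Litters 2 and 4 were the highest and litter 3 the lowest of the Nlrx1-/- libraries, and litter 3 overlapped WT for all 3 carriers.

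Further along the pathway, Azin2, a regulator of ornithine decarboxylase, rose by 2.82 log2 in WT (SE 0.10, adjusted p = 4.50e-09 by edgeR) and 2.71 log2 in Nlrx1-/- (SE 0.10, adjusted p = 6.85e-09), and Smox, spermine oxidase, fell by 0.37 and 0.56 log2 (adjusted p = 0.00212 and 0.000113). Over the ornithine and polyamine list, 6 of 12 genes rose and 1 fell in WT and 5 rose and 1 fell in Nlrx1-/-. Prodh, which begins proline breakdown, fell by 1.19 log2 in WT (adjusted p = 6.90e-05 by edgeR) and 1.02 log2 in Nlrx1-/- (adjusted p = 0.000196). In its list of 8 dimethylarginine, creatine and proline genes, 1 rose and 4 fell in WT and 2 rose and 4 fell in Nlrx1-/-. Ddah2, which clears dimethylarginines, rose in WT by 0.21 log2 (adjusted p = 0.00960 by edgeR), and Aldh18a1, a proline synthesis enzyme, rose in Nlrx1-/- by 1.27 log2 (adjusted p = 0.000185). Between genotypes in stimulated cells, Aldh18a1 was higher in Nlrx1-/- by 1.23 log2 (adjusted p = 0.0403) and Srm, spermidine synthase, by 0.92 log2 (adjusted p = 0.0411), and Gamt, a creatine synthesis enzyme, was lower (-0.49 log2, adjusted p = 0.0403, by edgeR). A total of 7 of the 60 listed genes were called in that comparison, 5 higher and 2 lower, against 2.46% and 2.26% of all genes. That count was 0 in the fit of only the 8 stimulated libraries, 21 without Nlrx1-/- litter 3, 13 without WT litter 1, 4 without Nlrx1-/- litter 1 and 0 without any other litter. None was called in vehicle or in the interaction by edgeR, where 0% of all genes were.

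Around itaconate, Cs, citrate synthase, rose from 435 to 499 CPM in WT vehicle libraries to 780 to 853 CPM (0.79 log2, SE 0.05, adjusted p = 3.00e-07 by edgeR) and by 0.72 log2 in Nlrx1-/- (adjusted p = 5.53e-07). Suclg2, a succinyl-CoA ligase subunit, fell by 0.31 log2 in WT (adjusted p = 0.00697 by edgeR) and 0.57 log2 in Nlrx1-/- (adjusted p = 0.000130). Over the 9 itaconate-related genes 5 rose and 2 fell in WT, and 4 rose and 4 fell in Nlrx1-/-. In the kynurenine list, 7 of 13 genes were tested, and 3 rose and 2 fell in each genotype. Ido2, the relative of Ido1, rose by 3.35 log2 in WT (SE 0.86, adjusted p = 0.00957 by edgeR) and 4.15 log2 in Nlrx1-/- (SE 0.93, adjusted p = 0.00369), from at most 0.239 CPM to 0.684 to 1.88 CPM. Aadat and Kyat1 are aminotransferases that act on kynurenine. Aadat fell in WT (-1.54 log2, adjusted p = 0.0427 by edgeR), a call that ended without Nlrx1-/- litter 3 (-1.54 log2, adjusted p = 0.0545). Kyat1 fell in both genotypes (-0.69 log2, adjusted p = 0.00446 in WT, and -0.85 log2, adjusted p = 0.00104 in Nlrx1-/-, by edgeR). Of the other 4 urea cycle genes 1 was tested and was called in no comparison.

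**Figure D5:**
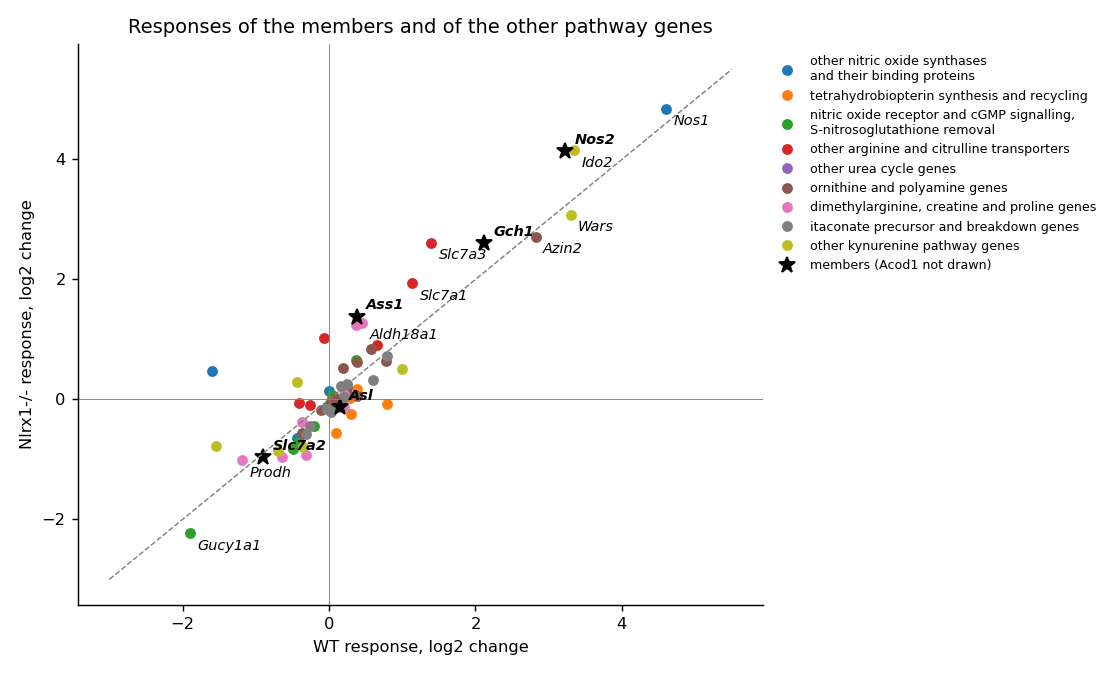
WT response against Nlrx1-/- response (log2 change, edgeR) of 60 pathway genes coloured by list and of 5 of the 6 genes described here (stars), with a dashed line where both are equal. Nos1 lies at 4.60 and 4.85, Gucy1a1 at -1.90 and -2.23, and Slc7a3 at 1.40 and 2.61.

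The patterns most like each gene were found by the root mean square difference in log2 CPM over the 16 libraries, after centring, among 12523 genes. Nearest to Slc7a2 were Iqcg and Ankrd45 (0.205 and 0.211 log2), to Gch1 Creb3l1 and Cx3cl1 (0.257 and 0.293 log2), to Ass1 Bbc3 and Hmox1 (0.242 and 0.254 log2) and to Asl Leprot and Fn3krp (0.107 and 0.108 log2). Acod1 was nearest to Il18bp and Bst2 (0.380 and 0.383 log2) and Nos2 to Ptx3 and Ifih1 (0.630 and 0.642 log2), the loosest fits of the 6.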

How the data were processed

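The 16 libraries were grouped by genotype and treatment as labelled, with litters as replicates and none left unassigned. Reads were non-stranded, so overlapping antisense transcripts cannot be told apart. The authors ran Salmon 1.7.0 against the GRCm39 transcriptome and deposited, per transcript, an expected count, a TPM, and 2 other columns, transcript length and effective length. The authors also deposited a CPM table, treated here as a signal because its columns are scaled by TMM-adjusted library sizes, and its log2 values with a small prior count, made with limma 3.58.1 and filtered for low counts. Of 129698 transcripts 106440 were paired with a symbol through the RefSeq accession, holding 96.7% to 97.3% of reads. Some sums of named genes differed from the deposited level in single libraries, down to -0.42 log2 for Kyat1, -0.34 for Slc7a3 and -0.18 for Smox. For Prodh, Aldh18a1 and Asl the differences were smaller, down to -0.14, -0.09 and -0.06 log2. Larger shortfalls were in listed genes that enter only the counts of calls. Aco1 was at -2.23 to -1.58 log2 and Slc3a2 at -1.62 to -0.85 log2 over 16 libraries, and Prkg2 was down to -0.67 log2. Their tests used only part of the reads behind the deposited level.

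Expected counts were summed per gene, rounded and tested with edgeR 4.0.16 in R 4.3.3, a quasi-likelihood test with TMM factors, offsets for transcript length and the filterByExpr filter (minimum count 10). Responses and interaction had litters as blocks within genotype. Genotypes were compared over the 4 conditions without litter terms, because a litter has 1 genotype. Wells of a litter come from the same mice by the submitters' design, and their deviations correlated across genes (median r of 0.22, 0.07 to 0.35). Other litters of the genotype had a median r of -0.05 (-0.35 to 0.15), so the ranges overlapped. Deviations were taken from group means, which by itself lowers r between litters. On simulated data the interaction test recovered 56.5% of genes changed by 1 log2 unit, over 15803 genes. P-values of the responses and the interaction measure the spread between litters, and the reads given set the precision. In the genotype comparisons both wells of a litter entered the spread estimate as separate libraries, although they correlate. Alternatives were DESeq2 1.42.0, limma-voom, the deposited log2 CPM, RLE factors, no offsets, no filter and leaving out each litter. The responses were also fitted without the litter block, and the genotype comparisons with a block on the replicate number.

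The genes and lists were chosen with earlier results of these data known. Besides the 9 genes, the text names in each list the called gene with the largest rise and fall in each response, up to 6 called between genotypes, and the 2 nearest patterns among genes with a mean of at least 0 log2 CPM. Transcript shares were compared for genes with at least 2 transcripts of 10% of reads. Gene positions are from GENCODE M39 (GRCm39). Promoters are from RefSeq (GRCm38.p6), where 3 of 9 symbols matched.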

Additional observations from a re-analysis of the deposited data

Results flagged for a closer look

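In 36 sets of 4 litters (6 genes, levels in 4 groups and responses in 2 genotypes), the sample farthest from the rest passed Dixon's 95% critical value in 2, where chance gives about 1 in 20. Ass1 in WT vehicle litter 1 was at 1.92 log2 CPM (3.73 CPM), below the other 3 WT vehicle libraries. Acod1 in Nlrx1-/- vehicle litter 2 was at -3.57 log2 CPM, which is a single read beside 0 reads in the other 3. Ido1, which has no row in the log2 CPM table, gave 35 reads over the WT stimulated libraries and 44 over the Nlrx1-/- stimulated libraries, above the vehicle libraries with 2 and 0 reads.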

How the results depend on the processing

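Of the log2 changes of the 6 genes under alternatives, litters left out included, 424 kept direction and side of the threshold, 20 were no longer called, 4 became called and 12 changed sign, none of them a called value; causes were not tested. Acod1 changed sign in the interaction, which was not called, under DESeq2 (0.0633 log2), limma-voom (0.37) and limma on the deposited log2 CPM (0.51), and ranged from -1.21 to 0.44 over litters left out. Also without a call, over litters left out, the Nos2 interaction ranged from -0.33 to 1.64 log2, and in vehicle the genotype difference ranged from -1.46 to 0.47 for Nos2, -0.31 to 0.0816 for Ass1, -0.0842 to 0.101 for Asl and 0 to 1.79 for Acod1. Over all genes, the interaction had 310 calls under DESeq2 and 1 without a filter, and 0 to 359 over litters left out; of the 6 genes 0 to 1 were called then, and of the pathway genes 3 under DESeq2 and 0 to 5 over litters. In vehicle, 781 genes were called under DESeq2 and 1 each under limma-voom, limma on log2 CPM, no filter and the block, with 0 to 1285 over litters; 0 to 1 of the 6 genes and 0 to 8 pathway genes were called then, and 3 pathway genes under DESeq2. In stimulated cells the count over all genes, 759, was 2502 under DESeq2, 387 under limma-voom, 1471 under limma on log2 CPM, 2158 with the block and 1 with only the 8 libraries, and 1 to 3289 over litters. Of the 6 genes, 2 called became 0 under limma-voom, 1 without offsets, 1 without a filter, 0 with only the 8 libraries and 0 to 3 over litters; of the pathway genes, 7 called became 16 under DESeq2, 17 with the block, 0 with only the 8 libraries and 0 to 21 over litters. The highest counts in each of these ranges were without Nlrx1-/- litter 3. Without the litter block the WT response had 4 and the Nlrx1-/- response 5 of the 6 genes called, and no call among the 6 changed in either response or the interaction. With the block 3 of the 6 genes were called in stimulated cells, Slc7a2 added (-0.98 log2, adjusted p = 0.0223 by edgeR), and no other call among the 6 changed in the genotype comparisons. The Nos2 transcript change ranged from 60.6 to 77.3 percentage points over litters, with an exact permutation p of 0.0312 or 0.0625. The median change over all genes was at most 0.0323 log2 from 0. Depth limits Arg1, Arg2, Ido1 and vehicle Nos2.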
